A study of Mus musculus with 6 samples.

Results

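Glutamate is the main fast excitatory transmitter of the brain, and the genes described here encode the proteins that load it into vesicles, clear it from the synapse, receive it and anchor its receptors. The set was a fixed list of 33 genes, taken by symbol from the 56923 genes of the deposited table: 3 vesicular transporters, 3 uptake transporters, 4 AMPA receptor subunits, 5 kainate receptor subunits, 6 NMDA receptor subunits, 6 metabotropic receptors and 6 postsynaptic scaffold proteins. All 33 were found, each under 1 identifier, and all 33 passed the filter on low values (10 or more normalized counts in 3 or more of the 6 libraries), as did 16411 genes in total. The tissue was locus coeruleus, the pontine nucleus of noradrenergic neurons that keeps the forebrain alert, punched from brain slices of 5xFAD transgenic mice (libraries 64, 65 and 79) and of wild-type (WT) mice (libraries 62, 63 and 66). The 5xFAD line carries human transgenes of familial Alzheimer's disease under a mouse Thy1 promoter, which is active in neurons, and deposits amyloid. The labels give no age, sex, batch or animal for any library, so p-values measure only the spread between these libraries, part of which may be technical. The study concerns hyperexcitable locus coeruleus neurons, tau phosphorylation and disturbed sleep in this amyloid model, and the comparison gives the level of glutamate transmission genes by genotype.

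AMPA receptors carry most of the fast excitatory current, kainate receptors tune release and excitability, and NMDA receptors admit calcium once the membrane is depolarised. Metabotropic receptors act through G proteins, with group I on the postsynaptic side and groups II and III mainly as brakes on release. Locus coeruleus neurons receive glutamatergic drive from the medulla and forebrain, and astrocytes take up the transmitter.

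The libraries held 15158712 to 17774759 reads assigned to genes in 5xFAD and 17362733 to 20079349 in WT. Markers of noradrenergic neurons were present: Dbh, the enzyme that makes noradrenaline, read 1879, 2895 and 2090 normalized counts in 5xFAD and 2187, 2492 and 1281 in WT. Thy1, whose promoter drives the transgenes, was the only gene past the threshold of the limma test over all tested genes (mean 20324 in 5xFAD and 8607 in WT, adjusted p = 0.0456), a call that was lost in 5 of the 6 fits without 1 library. Cerebellar marker transcripts were present in unequal amounts: the summed normalized count of 8 Purkinje cell markers was 15803, 32657 and 9748 in 5xFAD and 5993, 25320 and 7416 in WT, and that of 10 granule cell markers that are not members was 9000, 12611 and 5670 in 5xFAD and 3155, 10473 and 3866 in WT. All 8 and all 10 of these markers had higher means of log2 values in 5xFAD, with 0 of them at an unadjusted p under 0.05 in the limma test and 0 of them absent from every library. Libraries 5xFAD 65 and WT 63 had the most cerebellar marker transcripts of their group. They were not a separate class, as the granule cell sum of 5xFAD 64 (9000) was near that of WT 63 (10473). In bulk tissue, fewer cells of a type and less RNA per cell cannot be told apart.

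None of the 33 glutamate genes passed between the genotypes in the limma test (adjusted p = 0.9995 for each). Over all tested genes 0.00609% passed. In edgeR's quasi-likelihood test and in DESeq2 on the recovered reads, 0 of the 33 passed as well, beside 0.00609% and 0.0244% of all tested genes. Pick1 and Slc17a8 had an unadjusted p under 0.05 in each of the 3 tests, 2 of 33 genes or 6.06%, against 2.32% of all tested genes in limma, 2.33% in edgeR and 0.926% in DESeq2. By direction in limma, 1 member was higher, against 1.27% of all tested genes, and 1 lower, against 1.05%. The same pair, 1 higher and 1 lower in 5xFAD, were the members whose groups did not overlap, 6.06% of the list against 7.42% of all tested genes (3.72% higher and 3.7% lower), so this share was near the background. Log2 ratios (log2 fold changes), given throughout as 5xFAD over WT from normalized counts plus 1, ran from −0.49 to 0.32 with a median of 0.05 over the list, beside a median of 0.00053 over all tested genes. The median size without its sign was 0.0807 for the list and 0.0746 for all tested genes. Values were higher in 5xFAD for 22 members and lower for 11, where 50.2% of all tested genes were higher and 49.8% lower. That split moved with single libraries: it was 15 higher and 18 lower without 5xFAD 65, 17 and 16 without WT 66, 21 and 12 without 5xFAD 79, 22 and 11 without WT 62, and 25 and 8 without 5xFAD 64 or without WT 63. Without both WT 63 and 5xFAD 65 it was 26 higher and 7 lower. For 26 of the 33 genes, 78.8%, the 95% interval lay within a change of 1.5-fold in either direction, against 71.4% of all tested genes. The other 7 were Slc17a8, Slc1a3, Gria1, Grik2, Grin2c, Grm4 and Shank2.

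**Figure D1:**
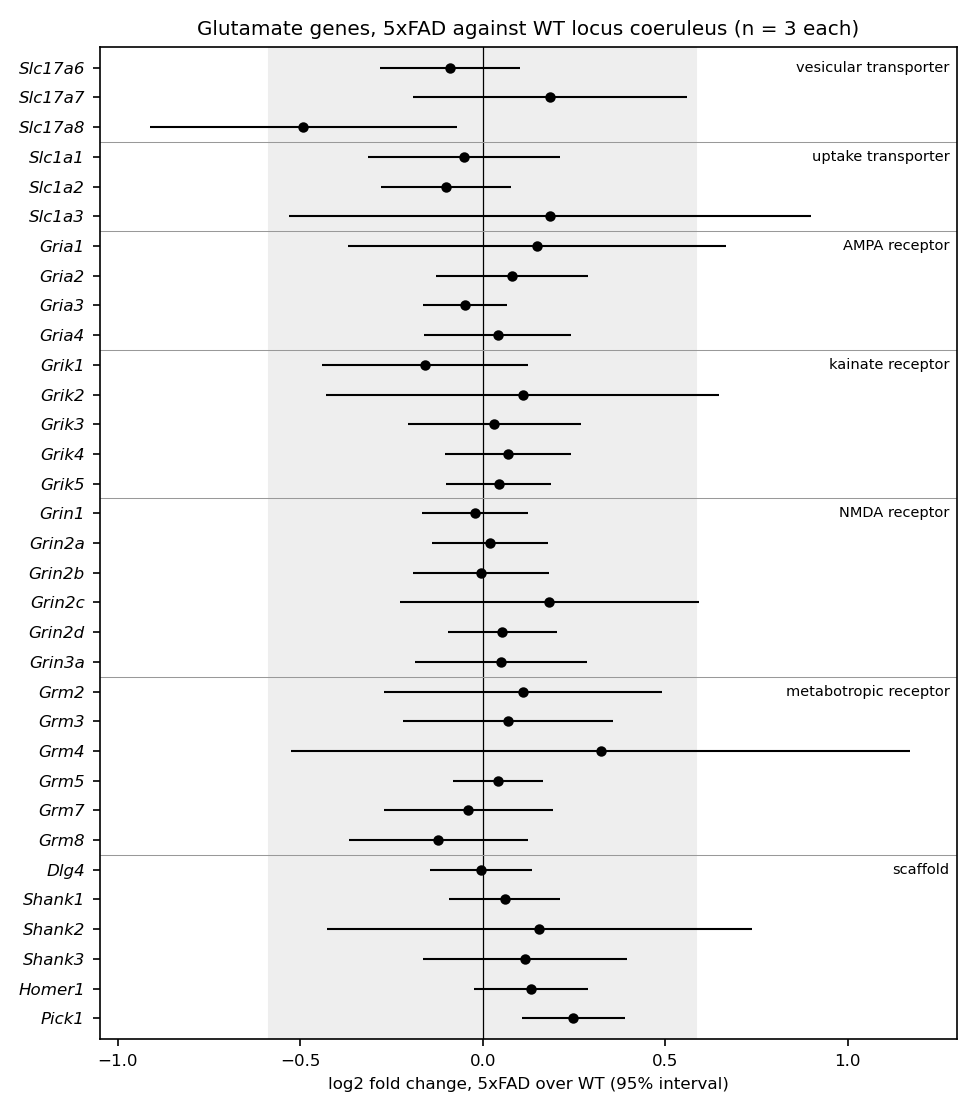
Log2 fold change of each of the 33 glutamate genes, 5xFAD over WT, as points with their 95% intervals from limma (n = 3 libraries each), grouped by family; the grey band marks changes smaller than 1.5-fold. The intervals of Pick1 (0.11 to 0.39) and Slc17a8 (−0.91 to −0.07) leave out 0, and those of Grm4, Slc1a3 and Shank2 are the widest.

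Pick1 (ENSMUSG00000068206.14) encodes a scaffold with a PDZ domain that binds the tail of the AMPA subunit GluA2 and protein kinase C alpha and takes part in the internalisation of AMPA receptors. It read 757, 731 and 713 normalized counts in 5xFAD and 613, 605 and 635 in WT. The lowest 5xFAD library exceeded the highest WT library, and the spread within each group was small. Its mean was 733.6 ± 22.2 in 5xFAD and 617.5 ± 15.7 in WT (SD, n = 3 each), 1.19 times as much, and the log2 ratio was 0.25 (SE 0.06, 95% interval 0.11 to 0.39). The unadjusted limma p was 0.0030 and the adjusted p 0.9995, and the interval lay within 1.5-fold. The value ran from 0.225 to 0.268 when each library was left out in turn. In the authors' deposited table, with the sign turned to 5xFAD over WT, Pick1 had a log2 ratio of 0.25 (SE 0.10, p = 0.00903, adjusted p = 0.9999). Of its exonic bases in GENCODE M21, 18.6% are shared with Gm49486 on the same strand, which itself read 8.17 to 15.5 normalized counts over the 6 libraries.

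Homer1 (ENSMUSG00000007617.19), a scaffold that links group I metabotropic receptors to calcium stores and has a short activity-induced form, had the next smallest p among the scaffolds. It read 630, 620 and 576 normalized counts in 5xFAD and 577, 548 and 539 in WT, so the groups overlapped narrowly, at 5xFAD 79 and WT 62. Its log2 ratio was 0.13 (SE 0.07, 95% interval −0.02 to 0.29). The unadjusted limma p was 0.0866 and the adjusted p 0.9995. Gene totals do not separate the short form from the long ones. Dlg4, which encodes PSD-95, the core scaffold of the postsynaptic density, was the highest scaffold gene per kilobase of exon. It read 3878, 4324 and 3948 normalized counts in 5xFAD and 4081, 4262 and 3847 in WT, with a log2 ratio of −0.01 (SE 0.06), a value that was 0.011 with quantile normalization. The 3 Shank genes encode the layer of scaffold beneath PSD-95 and all had overlapping groups: Shank1 had a log2 ratio of 0.06 (SE 0.07), Shank3 of 0.12 (SE 0.12) and Shank2 of 0.16 (SE 0.24).

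**Figure D2:**
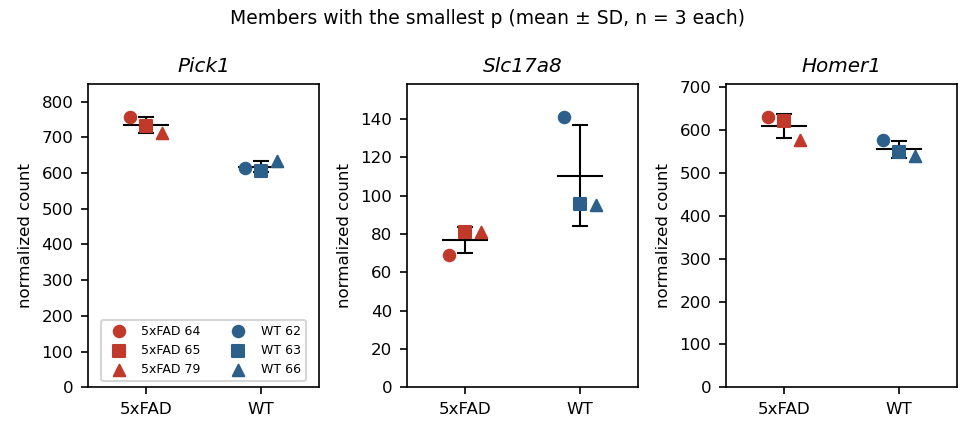
Normalized counts of Pick1, Slc17a8 and Homer1 in each library, 5xFAD left and WT right, with the mean and SD of each group (n = 3). Pick1 is higher in all 3 5xFAD libraries, Slc17a8 is lower in all 3 with WT 62 far above the other WT libraries, and Homer1 overlaps narrowly.

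Among the vesicular transporters, which fill synaptic vesicles with glutamate and mark glutamatergic neurons, Slc17a8 (ENSMUSG00000019935.17, VGLUT3) read 69.3, 81.1 and 81.0 normalized counts in 5xFAD and 141, 95.5 and 94.9 in WT. VGLUT3 is found in some serotonergic and cholinergic neurons. The groups did not overlap, but the WT mean rested largely on WT 62. The means were 77.1 ± 6.76 in 5xFAD and 110.5 ± 26.5 in WT (SD, n = 3 each), with a log2 ratio of −0.49 (SE 0.19, 95% interval −0.91 to −0.07). The unadjusted limma p was 0.0266 and the adjusted p 0.9995. Without WT 62 it was −0.304, and without WT 62 or without 5xFAD 64 Slc17a8 no longer had an unadjusted p under 0.05. It held 60 to 152 reads per library, 60 being the lowest of any member, which limits the precision. Markers of serotonergic neurons, a list of 6 genes of which 4 passed the filter, all 4 lower in 5xFAD with 0 at an unadjusted p under 0.05, summed to 438, 695 and 439 normalized counts in 5xFAD and 643, 613 and 362 in WT. Those of cholinergic neurons, 4 genes, 1 higher and 3 lower in 5xFAD, with 0 at an unadjusted p under 0.05, summed to 759, 1041 and 1112 in 5xFAD and 1189, 2046 and 539 in WT. Over all libraries, Slc17a8 was highest in WT 62, the serotonergic sum in 5xFAD 65 and the cholinergic sum in WT 63. Within WT, the serotonergic sum was highest in WT 62, as Slc17a8 was. The serotonergic marker Tph2 read 81.7 in WT 62, 30.1 in WT 63 and 13.3 in WT 66, but 144 in 5xFAD 65. Htr1a, the largest part of the serotonergic sum, was highest of WT in WT 63. The part of these cells in the result was not tested.

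Slc17a6 (VGLUT2), the vesicular transporter of most brainstem glutamatergic neurons, was the leading one. It read 5725, 4917 and 6056 normalized counts in 5xFAD and 6134, 5416 and 6182 in WT, with a log2 ratio of −0.09 (SE 0.09, 95% interval −0.28 to 0.10). Slc17a7 (VGLUT1), the form of cortical neurons and cerebellar granule cells, read 1201, 1327 and 1024 in 5xFAD and 839, 1252 and 1058 in WT, with a log2 ratio of 0.18 (SE 0.16) that was 0.032 without WT 62 and 0.321 without WT 63. Per kilobase of exon, Slc17a6 made up 81.7%, 77.6% and 84.4% of the 3 vesicular transporters in 5xFAD and 86.0%, 79.9% and 84.1% in WT. Slc17a7 made up 17.2%, 21.0% and 14.3% in 5xFAD and 11.8%, 18.5% and 14.4% in WT, so its share overlapped between groups and was highest in 5xFAD 65 and WT 63.

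Of the uptake transporters, Slc1a2 (GLT-1), which performs most glutamate clearance and sits mainly in astrocytes, was the highest of all 33 genes per kilobase of exon, at 2372 ± 200 in 5xFAD and 2544 ± 204 in WT (SD, n = 3 each), ahead of Slc17a6 at 1031 ± 109 in 5xFAD and 1095 ± 79.5 in WT. It read 30951, 28632 and 33863 normalized counts in 5xFAD and 35511, 30401 and 34320 in WT. The groups overlapped, with a log2 ratio of −0.10 (SE 0.08, 95% interval −0.28 to 0.08). Slc1a3 (GLAST), which is dense in Bergmann glia of the cerebellum, read 4799, 7474 and 4276 in 5xFAD and 4150, 6264 and 4016 in WT, with a log2 ratio of 0.18 (SE 0.28). Markers of Bergmann glia that are not members, 4 genes, were all higher in 5xFAD with 0 at an unadjusted p under 0.05 in limma. They summed to 1802, 2404 and 1787 in 5xFAD and 1558, 1875 and 1914 in WT, and Timp4 made up most of this. Of the 4, only Gdf10 was highest in 5xFAD 65 and WT 63 of their groups, as Slc1a3 was. Gdf10 read 124, 332 and 86.0 in 5xFAD and 18.6, 229 and 59.2 in WT. The part of these cells was not tested. Slc1a1 (EAAC1), the neuronal transporter, read 1870, 1528 and 1981 in 5xFAD and 2018, 1624 and 1920 in WT, with a log2 ratio of −0.05 (SE 0.11). In GENCODE M21, 31.9% of the exonic bases of Slc1a1 are shared with a gene on the other strand, 4430402I18Rik, which read 42.8 to 58.5 normalized counts over the 6 libraries. Astrocyte markers that are not members, 9 genes with 3 higher and 6 lower, summed to 37346, 34935 and 37062 in 5xFAD and 37467, 34114 and 39983 in WT.

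The groups of all 4 AMPA receptor subunits overlapped between genotypes. The 95% interval lay within 1.5-fold for 3 of them, but for Gria1 it was wider (−0.37 to 0.67). Gria4 had the highest level per kilobase of exon of the 4 and read 4211, 4998 and 4177 normalized counts in 5xFAD and 4169, 4803 and 4028 in WT (log2 ratio 0.04, SE 0.09). Gria3 had the lowest and read 2400, 2367 and 2525 in 5xFAD and 2534, 2528 and 2475 in WT (log2 ratio −0.05, SE 0.05, 95% interval −0.16 to 0.07). Gria3 had the smallest SE of the 33 genes. Gria2, whose subunit makes the channel impermeable to calcium after RNA editing, read 5726, 5891 and 5449 in 5xFAD and 4918, 6288 and 5025 in WT (log2 ratio 0.08, SE 0.09). Gria1 read 3905, 5018 and 3348 in 5xFAD and 3126, 4675 and 3294 in WT (log2 ratio 0.15, SE 0.21). Gria2 made up 18.4% ± 1.31 of AMPA subunits in 5xFAD and 18.3% ± 0.20 in WT (SD, n = 3 each) per kilobase of exon. Per kilobase of coding sequence, a length without the long Gria2 untranslated exons that was tried after the data were seen, its share was 34.4% ± 1.71 in 5xFAD and 34.1% ± 0.52 in WT. The order of the subunits therefore depended on the length used, while the shares of the genotypes were near each other under both lengths.

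Kainate receptor subunits overlapped between groups as well. Grik5, an obligate partner subunit, was the highest per kilobase of exon and read 927, 964 and 913 normalized counts in 5xFAD and 898, 964 and 860 in WT (log2 ratio 0.04, SE 0.06). Grik1 was the lowest and read 263, 246 and 255 in 5xFAD and 250, 346 and 266 in WT (log2 ratio −0.16, SE 0.13). WT 63 was the highest library, and without WT 63 and 5xFAD 65 its log2 ratio was 0.01. Grik2 read 958, 1192 and 862 in 5xFAD and 874, 1240 and 723 in WT (log2 ratio 0.11, SE 0.22). Grik3 and Grik4 had log2 ratios of 0.03 (SE 0.10) and 0.07 (SE 0.08). By coding length Grik3 led, with 29.8% ± 0.92 of kainate subunits in 5xFAD and 30.03% ± 0.41 in WT, while Grik5 held 23.8% ± 1.49 in 5xFAD and 23.8% ± 1.64 in WT (SD, n = 3 each).

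NMDA receptors need the subunit of Grin1, which was the highest of the 6 per kilobase of exon. It read 3768, 3827 and 4101 normalized counts in 5xFAD and 3726, 4274 and 3872 in WT (log2 ratio −0.02, SE 0.06). The GluN2 subunits, which set the kinetics of the channel, also overlapped between groups. Grin2b, the lowest per kilobase of exon, read 1419, 1632 and 1591 in 5xFAD and 1552, 1710 and 1401 in WT, with a log2 ratio that rounds to 0 and a 95% interval of −0.19 to 0.18. Grin2a had a log2 ratio of 0.02 (SE 0.07), Grin2d of 0.05 (SE 0.07) and Grin3a, a subunit that lowers calcium entry, of 0.05 (SE 0.10). Grin2c, the subunit of mature cerebellar granule cells, read 845, 911 and 600 in 5xFAD and 617, 797 and 641 in WT (log2 ratio 0.18, SE 0.17). The ratio of Grin2b to Grin2a per kilobase of exon was 0.833, 1.00 and 0.939 in 5xFAD and 0.891, 0.990 and 0.938 in WT. Among the 4 GluN2 genes Grin2c held 41.6% ± 5.45 in 5xFAD and 38.9% ± 2.34 in WT per kilobase of exon, but 21.5% ± 3.76 in 5xFAD and 19.4% ± 1.58 in WT per kilobase of coding sequence. By coding length Grin2b led, with 35.5% ± 2.59 in 5xFAD and 36.9% ± 0.68 in WT (SD, n = 3 each). Of the exonic bases of Grin1, 13.5% are shared with Grin1os on the other strand, which read 37.0 to 51.0 normalized counts.

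**Figure D3:**
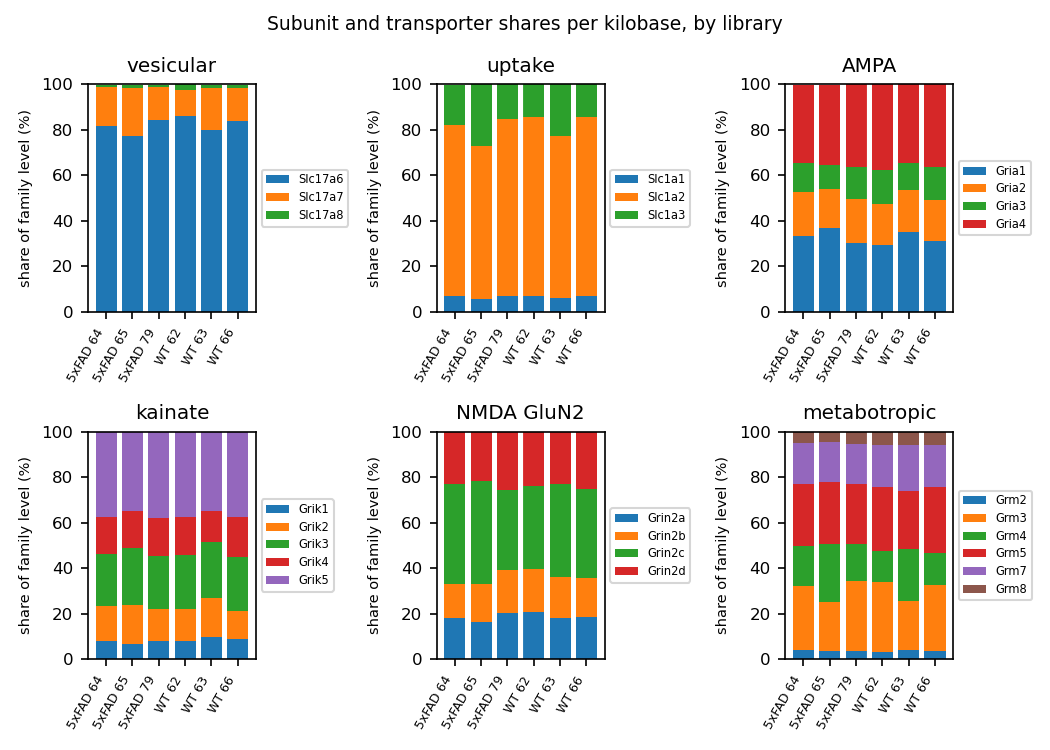
Share of each gene in its family's summed level per kilobase of exon, in percent, as stacked bars for each library (the 3 5xFAD libraries left, the 3 WT libraries right). Slc17a6 and Slc1a2 lead their families in all 6 libraries, and the shares of Slc1a3 and Grm4 are highest in 5xFAD 65 and WT 63.

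Of the metabotropic receptors, Grm5, a group I receptor of the postsynaptic side, had a level per kilobase of exon of 161 ± 4.43 in 5xFAD and 156 ± 5.40 in WT (SD, n = 3 each), the highest by less than its spread ahead of Grm3. Per kilobase of coding sequence its lead was wide, at 456 in 5xFAD and 444 in WT. Grm4 had 255 in 5xFAD and 210 in WT, Grm7 215 in 5xFAD and 223 in WT, and Grm3 185 in 5xFAD and 175 in WT. Next after Grm5 by this length came Grm4 in 5xFAD and Grm7 in WT. Grm5 read 1635, 1697 and 1609 normalized counts in 5xFAD and 1605, 1654 and 1544 in WT. Its log2 ratio of 0.04 (SE 0.05, 95% interval −0.08 to 0.16) was among the most closely bounded. Grm2, a group II autoreceptor, had 21.6 ± 1.17 per kilobase of exon in 5xFAD and 20.2 ± 4.14 in WT, the lowest of the 33 genes in WT, while Slc17a8 was lower in 5xFAD at 16.3 ± 1.43. It read 112, 104 and 101 in 5xFAD and 81.7, 121 and 93.9 in WT. Grm3, the group II receptor that astrocytes also carry, had a log2 ratio of 0.07 (SE 0.13). The group III receptors Grm7 and Grm8, which restrain release, had −0.04 (SE 0.10) and −0.12 (SE 0.11). Grm4, a group III receptor of granule cell terminals, had the largest positive value of the list with all 6 libraries, 0.32, with an SE of 0.34. Leaving out 1 library moved it between 0.117 (without 5xFAD 65) and 0.651 (without WT 63), and without 5xFAD 65, WT 62 or WT 66 it was below Pick1. It read 624, 927 and 580 in 5xFAD and 448, 873 and 436 in WT, so both groups ranged widely and overlapped.

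Many members varied together between libraries of the same genotype. In 18 of the 33 genes, 54.5%, the highest 5xFAD library was 65 and the highest WT library was 63, the pair with the most cerebellar marker transcripts, where 18.4% of all tested genes showed this. In 4 genes, Slc17a6, Slc1a1, Slc1a2 and Grm3, these libraries were the lowest of their group, 12.1% of the list against 19.6% of all tested genes. In 5 genes, Slc1a3, Grik2, Grin2c, Grm4 and Shank2, the highest library was at least 1.5 times the lowest within a genotype, 15.2% against 26.7% of all tested genes. Grm4 spanned 1.60-fold within 5xFAD and 2.00-fold within WT, Slc1a3 1.75-fold within 5xFAD and 1.56-fold within WT, and Shank2 1.71-fold within 5xFAD and 1.43-fold within WT. All 5 were highest in 5xFAD 65 and WT 63 of their group. Pick1 spanned 1.06-fold within 5xFAD and 1.05-fold within WT and followed neither direction. The noradrenergic markers were also highest in these libraries for 8 of 10 genes, and summed to 9745, 14096 and 10538 in 5xFAD and 11025, 12666 and 6738 in WT. Oligodendrocyte markers were lowest there for 7 of 8 genes, and summed to 278303, 203425 and 317168 in 5xFAD and 255090, 210499 and 266652 in WT. WT 66 differed in other ways. It had the lowest noradrenergic sum of the libraries and the highest sum of choroid plexus and ependyma markers, to which Ttr gave 1107. These markers summed to 792, 1155 and 614 in 5xFAD and 847, 703 and 2245 in WT. WT 66 was the lowest WT library for members such as Gria4, Grik5, Grm5 and Dlg4, and WT 62 for others such as Gria1 and Gria2. The part of this library in the values was not tested.

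**Figure D4:**
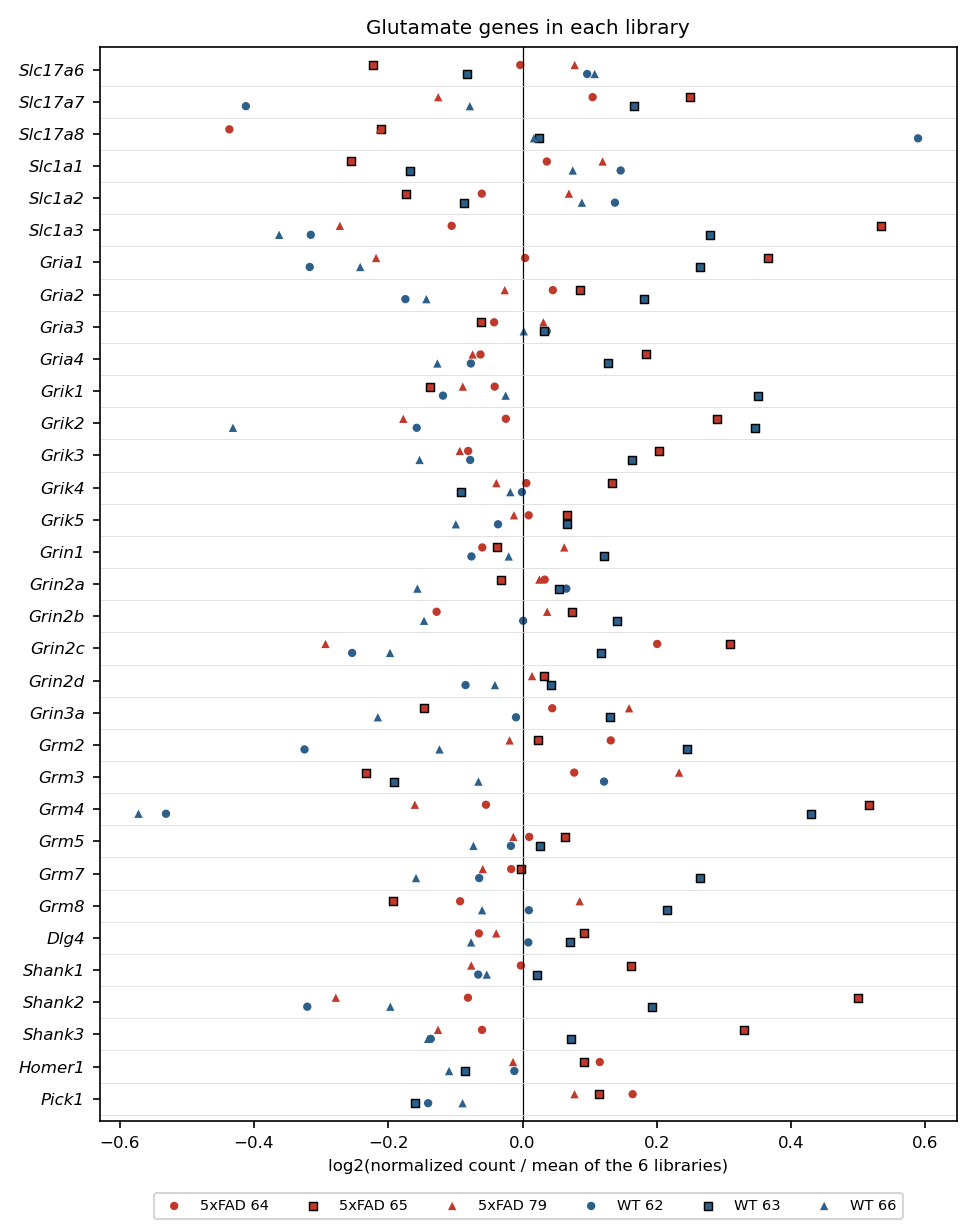
Normalized count of each glutamate gene in each library, as the log2 ratio to the mean of the 6 libraries (5xFAD red, WT blue; black edges mark 5xFAD 65 and WT 63). The black-edged points are the rightmost of their genotype for 18 genes and the leftmost for Slc17a6, Slc1a1, Slc1a2 and Grm3.

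**Figure D5:**
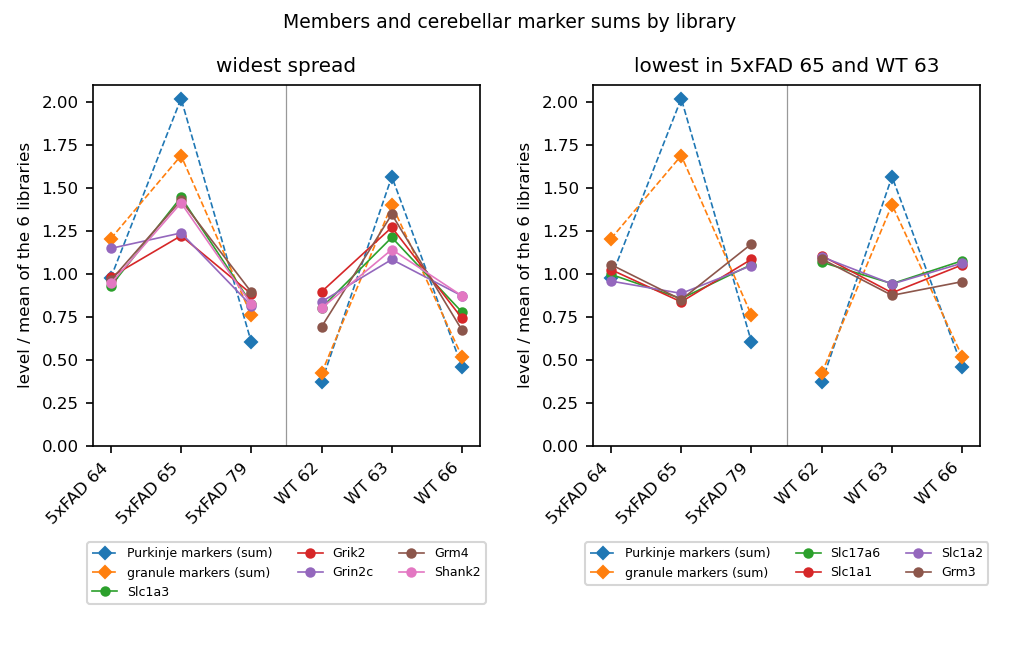
Summed normalized counts of cerebellar Purkinje and granule cell markers (dashed) beside glutamate genes (solid), each divided by its mean over the 6 libraries, by library; lines join libraries of a genotype only to guide the eye. Left, the 5 genes with the widest spread; right, the 4 genes lowest in 5xFAD 65 and WT 63.

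Without 5xFAD 65 and WT 63, an alternative chosen after seeing the data that leaves 2 libraries a group, 0 of the 33 genes passed in the limma test, where 0.0548% of all tested genes did. The left-out libraries were the highest of their group in 54.5% of the members and 18.4% of all tested genes. They were the lowest in 12.1% of the members and 19.6% of all tested genes. Leaving them out therefore bears on the spread of members more often than on that of the background. An excess in the shares below cannot be read as a result about the members. In this fit an unadjusted limma p under 0.05 was found for 7 of the 33, 21.2%, against 6.7% of all tested genes. They were Slc1a3, Gria1, Gria2, Grin3a, Grm4 and Pick1 with higher values in 5xFAD, 6 genes or 18.2% against 3.71% of all tested genes, and Slc17a8 with a lower one. Grm4 had a log2 ratio of 0.44 (SE 0.09, limma adjusted p = 0.216), Grin3a 0.21 (SE 0.08), Gria1 and Gria2 0.17 (SE 0.07 and 0.05), and Slc1a3 0.15 (SE 0.06). Pick1 was 0.24 (SE 0.08, adjusted p = 0.544) and Slc17a8 −0.62 (SE 0.23, adjusted p = 0.610). The groups did not overlap in 16 of the 33, 48.5%, against 36.5% of all tested genes. Of these 13 were higher and 3 lower in 5xFAD, where 18.8% of all tested genes were higher and 17.7% lower. The cerebellar marker sums of the 4 remaining libraries were themselves higher in 5xFAD, at 15803 and 9748 against 5993 and 7416 in WT for Purkinje cells and 9000 and 5670 against 3155 and 3866 in WT for granule cells, and their part in these values was not tested.

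The promoters of the members were read from RefSeq (GRCm38.p6) as the 250 bases before the first listed start of each gene, which matched 23 of the 33. Their median GC content was 62.4% with a median of 15 CpG dinucleotides, against 52.0% and 6 over all 27025 genes. This background was not limited to the tested genes, whereas all members had passed the filter on low values. Differences from it here and below therefore cannot be read as particular to glutamate genes. The GC box GGGCGG, on either strand, was in 13 of 23 member promoters (56.5%) and in 32.9% of all, CCAAT on either strand in 4 (17.4%) against 34.5%, TATAAA on either strand in 1 (4.35%) against 13.0%, CACGTG in 1 (4.35%) against 6.05%, and TGACGTCA in 0 against 1.62%. The sequences shown are those of Pick1, the member with the smallest p, and of 3 members that ranged widely together over the libraries, Slc1a3, Grik2 and Grin2c. Capitals mark the letters of any of these 5 motifs. Slc1a3 holds 1 GC box, 3 CCAAT and the 1 TATAAA of the set, Grin2c holds 3 GC boxes, of which a pair overlap by a base, and Pick1 and Grik2 hold none of the 5 in this window. Among these 3 wide-ranging members, Grik2 thus shares none of the 5 motifs with Slc1a3 and Grin2c in this window. Grm4 and Shank2, which also ranged widely, are not shown. The part of promoters in the range over libraries was not tested. The windows are chr15:79228923-79229172 on the plus strand for Pick1, chr15:8710808-8711057 on the minus strand for Slc1a3, chr10:49788755-49789004 on the minus strand for Grik2 and chr11:115267244-115267493 on the minus strand for Grin2c, each written 5′ to 3′ along the gene.
Pick1: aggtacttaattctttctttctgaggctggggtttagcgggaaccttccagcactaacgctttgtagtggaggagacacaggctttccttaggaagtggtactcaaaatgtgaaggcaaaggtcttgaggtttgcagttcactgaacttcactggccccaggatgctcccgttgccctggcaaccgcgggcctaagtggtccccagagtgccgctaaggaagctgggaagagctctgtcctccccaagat
Slc1a3: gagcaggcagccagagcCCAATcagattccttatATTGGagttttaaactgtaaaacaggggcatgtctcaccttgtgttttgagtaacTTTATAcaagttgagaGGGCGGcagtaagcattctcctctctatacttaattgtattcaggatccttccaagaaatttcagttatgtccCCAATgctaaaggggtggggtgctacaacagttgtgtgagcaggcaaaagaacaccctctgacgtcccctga
Grik2: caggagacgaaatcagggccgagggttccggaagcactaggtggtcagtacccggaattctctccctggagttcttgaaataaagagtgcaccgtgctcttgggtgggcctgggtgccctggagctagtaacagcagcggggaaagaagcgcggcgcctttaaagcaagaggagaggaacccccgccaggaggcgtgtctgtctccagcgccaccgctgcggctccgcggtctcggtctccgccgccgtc
Grin2c: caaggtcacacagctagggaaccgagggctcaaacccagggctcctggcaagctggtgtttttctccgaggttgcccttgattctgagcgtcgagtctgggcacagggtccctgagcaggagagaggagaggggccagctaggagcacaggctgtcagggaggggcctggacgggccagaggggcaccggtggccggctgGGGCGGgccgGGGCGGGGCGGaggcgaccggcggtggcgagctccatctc

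Other genes of glutamate transmission, in 5 lists of 78 genes chosen with earlier results of these data known, did not pass either. Of 76 tested, 50 had higher and 26 lower values in 5xFAD, where 50.2% of all tested genes were higher. The splits of these lists were not recounted with libraries left out. That of the 33 members turned to 15 higher and 18 lower without 5xFAD 65. In the limma test 0 of the 76 passed and 1 had an unadjusted p under 0.05, against 2.32% of all tested genes. Grm6 and Slc1a7 were under the filter, at 0 to 0.86 and 0 to 3.00 normalized counts over the libraries. That 1 gene was Cbln1, a secreted synapse organizer of cerebellar granule cells, which read 2436, 2485 and 2001 normalized counts in 5xFAD and 1716, 2142 and 1872 in WT (log2 ratio 0.27, SE 0.10). The granule cell marker sums, 9000, 12611 and 5670 in 5xFAD and 3155, 10473 and 3866 in WT, were also highest in 5xFAD 65 and WT 63, and their part was not tested.

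Auxiliary subunits of AMPA and kainate receptors, which control trafficking and gating, had 13 higher and 3 lower values of 16. Over all tested genes 50.2% were higher. The median log2 ratio of these subunits was 0.06. Shisa6, found in Purkinje cells among others, ranged from 451 to 944 in 5xFAD and 324 to 710 in WT (log2 ratio 0.57, SE 0.43; 0.270 without 5xFAD 65 and 0.942 without WT 63), Shisa9 had a log2 ratio of 0.10 (SE 0.06), Shisa7 of 0.12 (SE 0.11), and Frrs1l, which helps assemble AMPA receptors, of 0.09 (SE 0.10). The remaining receptors and transporters had 6 higher and 2 lower values of 8. They include Slc1a6, the Purkinje cell transporter, at 0.43 (SE 0.36; 0.193 without 5xFAD 65 and 0.796 without WT 63), and Grin3b, an NMDA receptor subunit, at −0.20 (SE 0.24).

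Further scaffolds and trafficking proteins had 15 higher and 8 lower values of 23. Grip2, an AMPA receptor binding protein, read 569, 567 and 554 in 5xFAD and 649, 584 and 611 in WT (log2 ratio −0.12, SE 0.07), groups that did not overlap. Dlgap4 had a log2 ratio of 0.09 (SE 0.07), Prkca, the kinase that PICK1 binds, of 0.14 (SE 0.12), and Nsf, an ATPase of membrane fusion that binds GluA2, of −0.09 (SE 0.07). Genes of postsynaptic signalling and synapse organizers had 11 higher and 6 lower values of 17, with Nlgn1 at −0.13 (SE 0.08) and Camk2g at −0.10 (SE 0.07). Genes of glutamate synthesis, breakdown and the glutamine shuttle had 5 higher and 7 lower values of 12. Their values were close to 0, from −0.10 to 0.04, and the 95% interval lay within 1.5-fold for 11 of the 12. The 2 transaminases Got1 and Got2 had −0.09 (SE 0.08) and −0.08 (SE 0.06), and the glutaminase Gls2 −0.10 (SE 0.10). Glul, the astrocyte enzyme that turns glutamate into glutamine, read 44808, 36178 and 42995 in 5xFAD and 45093, 38818 and 39937 in WT, with a 95% interval within 1.5-fold.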

How the data were processed

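RNA of locus coeruleus punches was sequenced as poly-A selected TruSeq libraries on a NovaSeq instrument, per the labels' protocols. Alignment to mm39 and the tools STAR, RSEM and DESeq2 are listed in the submitters' processing notes; the annotation and the strand setting were not given in the sources used here, which leaves genes with shared exons uncertain. The deposited table is named as TPM, but its library columns are a signal: the authors scaled each library's gene counts by a single size factor. In all, 100% of values were whole multiples of 1 step (tolerance 0.001), and size factors recomputed by median of ratios differed by at most 4.0e-15. For 5xFAD 79 the size factor is so near 1 (1.00) that low values alone could not tell scaled from unscaled reads. The authors also deposited a log2 fold change with its standard error, a test score and p-values, whose log2 fold change is WT over 5xFAD. Symbols were matched for 52073 of 56923 identifiers (91.5%).

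The log2 of each normalized count plus 1 was tested in limma 3.58.1 (R 4.3.3; variance trend, robust moderation), 3 against 3 libraries, with Benjamini-Hochberg adjustment over the 16411 genes with at least 10 in at least 3 libraries and a threshold of 0.05. edgeR 4.0.16 and DESeq2 1.42.0 were run on the recovered reads. Tests were tried on simulated data. Exonic lengths came from GENCODE M21, which is not the authors' build and was matched by identifier, and they ignore which isoforms are expressed. Members and lists were chosen with earlier results of these data known. The rule for naming genes took all members and, of each further list, the 3 smallest p and the highest mean; some of these are not reported here. Figures were made with matplotlib 3.10.9 (Python 3.11.15). Alternatives covered normalization, pseudocount, filter, test and left-out libraries. Values per library cover all reads assigned to the gene, and leave-1-out estimates rest on 2 libraries in a group.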

Additional observations from a re-analysis of the deposited data

How the results depend on the processing

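No paired analysis was possible because the labels give every library its own number. No glutamate gene passed over all genes under any alternative run. The count of genes past the threshold over all tested genes, 1 in the main test, was 0 without trend and robust moderation, 4 with DESeq2, 0 to 2 with 1 library left out, and 9 without WT 63 and 5xFAD 65. Members with an unadjusted p under 0.05, 2 in the main test, numbered 1 with a filter of 100, which removes Slc17a8, 1 to 5 with 1 library left out and 7 without WT 63 and 5xFAD 65. Members whose groups did not overlap, also 2, numbered 4 with quantile normalization, 1 with a filter of 100, 2 to 15 with 1 library left out and 16 without WT 63 and 5xFAD 65. The 5 and the 15 came without WT 63, where 6.03% of all tested genes had such a p and 23.8% did not overlap; with each of the other libraries left out, these shares were 1.5% to 3.42% and 13.9% to 19.0%. With quantile normalization 7.25% of all tested genes did not overlap. The filter of 100 kept 32 members among 11645 genes. Of those genes, 2.04% had an unadjusted limma p under 0.05 and 7.17% did not overlap. Thy1 was not past the threshold without trend and robust moderation, without the filter, where another gene passed, or in 5 of the 6 fits without 1 library, the exception being without 5xFAD 65; without WT 66 another gene passed. The filter of 100 gave no value for Slc17a8. Otherwise the sign held under every alternative for 13 of the 33 members, Pick1, Slc17a8 and Homer1 among them. It turned for Dlg4 (0.011) and Glul (0.051) with quantile normalization and for Glul with DESeq2 (0.00125). With 1 library, or WT 63 and 5xFAD 65 together, left out, the log2 fold change changed sign within these ranges: Slc1a1 (−0.144 to 0.0597), Slc1a3 (−0.0558 to 0.391), Gria1 (−0.00878 to 0.330), Gria4 (−0.0429 to 0.118), Grik1 (−0.251 to 0.00655), Grik2 (−0.0654 to 0.323), Grik3 (−0.0643 to 0.125), Grik4 (−0.00711 to 0.106), Grin1 (−0.0623 to 0.0494), Grin2a (−0.0509 to 0.0746), Grin2b (−0.0769 to 0.0669), Grin3a (−0.0418 to 0.214), Grm2 (−0.0156 to 0.277), Grm3 (−0.0327 to 0.200), Grm7 (−0.126 to 0.0852), Grm8 (−0.198 to 0.0214), Dlg4 (−0.0531 to 0.0299), Shank1 (−0.00692 to 0.112), Shank2 (−0.0713 to 0.317), Shank3 (−0.0245 to 0.203), Grin3b (−0.334 to 0.0138) and Glul (−0.0628 to 0.0915). With 1 library left out, the value moved by over 1.5 times or turned sign for 31 of the 33 members, all but Pick1 and Homer1, and for 15 of 17 other named genes, all but Grip2 and Cbln1. The cause was not tested. Low read numbers limit Slc17a8 (60 to 152 reads) and Grin3b (30 to 59 reads).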
